A study of Mus musculus with 2 samples.

Results

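Broad promoter intervals were examined in the chromatin accessibility profile of mouse OLIG2+ spinal progenitors. They were chosen by their length: an interval was a member where it lay on an autosome, was 2500 bp or longer, and covered annotated transcription start sites (TSSs) of exactly 1 protein-coding gene. By this rule 695 of 119502 intervals were members, and the 13658 shorter single-gene TSS intervals on autosomes served for comparison. The interval length was called from the same kind of signal that the counts measure, so lengths and count levels are given as a description, with no test between the classes; the test further on compares only the 2 libraries.

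The libraries came from 1 group with 2 replicates, and there was no control group. Mouse embryonic stem cells carrying an Olig2-2A-mKate2 reporter, in which the red fluorescent protein mKate2 is made from the Olig2 transcript as a separate protein, were differentiated to neural progenitors (NPs) in N2B27 medium. From day 0 to day 2 they received 10 ng/ml bFGF and 5 µM LGK, followed by 20 h of bFGF, 5 µM CHIR99021, 10 µM SB-431542 and 2 µM DMH1. From day 3 they received 100 nM retinoic acid (RA) and 100 nM of the Smoothened agonist SAG, and at day 5 live mKate2-positive cells were sorted. Each library was made by ATAC-seq from 50000 cells. ATAC-seq cuts and tags DNA wherever chromatin is open enough for the Tn5 transposase to reach it. Because the sort follows the reporter, the population is not pure: per the study, early motor neurons and a fraction of NKX2.2-positive cells come with it. The labels did not say whether the replicates were separate differentiations.

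A promoter is the stretch around a TSS where the transcription machinery assembles, and in active or poised genes its chromatin is open. Most mammalian promoters lie in CpG islands, which are stretches that keep the CpG dinucleotide that methylation has worn away elsewhere in the genome. Genes for developmental transcription factors often sit in long or multiple CpG islands, which Polycomb complexes occupy in cells that do not express the gene. Promoters of housekeeping genes, used by every cell, usually sit in a single compact island.

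Sequences next to the TSS and about 1 kb from it show how CpG content changed with distance at single genes. They are from GRCm38, read 5′ to 3′ on the strand of the gene, with every CpG in capitals. Foxo3, a forkhead transcription factor, was among the longest developmental transcription factor members, and its 150 bp windows lay just upstream of the TSS at chr10:42276756-42276905, about 1 kb upstream at chr10:42277706-42277855, and about 1 kb downstream in an intron at chr10:42275655-42275804. They held 23, 19 and 22 CpGs.
Foxo3 at the TSS: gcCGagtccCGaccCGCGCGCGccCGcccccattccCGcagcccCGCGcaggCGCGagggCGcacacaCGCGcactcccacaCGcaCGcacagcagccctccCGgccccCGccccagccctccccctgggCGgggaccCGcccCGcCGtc
Foxo3 upstream: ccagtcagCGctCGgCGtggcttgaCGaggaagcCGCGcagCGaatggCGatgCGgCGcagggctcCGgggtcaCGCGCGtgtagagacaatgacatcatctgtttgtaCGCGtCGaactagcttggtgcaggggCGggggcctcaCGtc
Foxo3 downstream: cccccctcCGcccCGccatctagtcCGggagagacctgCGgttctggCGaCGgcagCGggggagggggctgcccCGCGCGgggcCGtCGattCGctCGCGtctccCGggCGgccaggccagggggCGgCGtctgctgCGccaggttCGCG
Rps15a encodes a ribosomal protein, and its interval, below the limit, was the longest single-gene interval of a housekeeping gene. Its windows at chr7:118116189-118116338 and chr7:118117139-118117288 held 6 CpGs next to the TSS and 1 CpG about 1 kb upstream. The same window next to the TSS of Uqcr11, another housekeeping gene below the limit, held 9 CpGs.
Rps15a at the TSS: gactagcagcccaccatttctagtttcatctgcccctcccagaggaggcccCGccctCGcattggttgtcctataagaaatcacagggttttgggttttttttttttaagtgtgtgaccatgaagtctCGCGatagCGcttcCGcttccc
Rps15a upstream: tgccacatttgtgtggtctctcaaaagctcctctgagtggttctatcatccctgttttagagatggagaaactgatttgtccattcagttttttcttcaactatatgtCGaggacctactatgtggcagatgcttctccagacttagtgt
Olig2, whose reporter the sort used, also had an interval below the limit. Its windows at chr16:91225307-91225456 and chr16:91224357-91224506 held 14 CpGs next to the TSS and 0 about 1 kb upstream, outside the interval.
Olig2 at the TSS: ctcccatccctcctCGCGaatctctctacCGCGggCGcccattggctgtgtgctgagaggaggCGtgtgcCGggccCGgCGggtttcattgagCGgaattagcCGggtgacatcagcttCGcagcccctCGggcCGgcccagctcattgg
Olig2 upstream: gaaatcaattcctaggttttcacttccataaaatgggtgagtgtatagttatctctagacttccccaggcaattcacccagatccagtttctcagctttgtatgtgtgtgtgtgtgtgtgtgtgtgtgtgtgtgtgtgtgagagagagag
Foxo3 was the member with the most CpGs among those examined. About 1 kb upstream of the TSS, Pou3f2 kept 4 CpGs and Tbx2 kept 1, although both lay inside their intervals and had 14 and 16 CpGs next to the TSS.

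The 2 libraries held 31876165 and 31672240 counts over all intervals. The broad promoter intervals made up 0.582% of the intervals and 2.64% of their bases, and took 4.38% of replicate 1's counts and 4.28% of replicate 2's. Of the markers chosen for the cells, Olig2, Nkx6-1, Pax6 and Sox2 of motor neuron progenitors all had a TSS interval. So did Nkx2-2 and Foxa2 of the progenitors ventral to these, Mnx1, Isl1 and Lhx3 of motor neurons, and fibroblast markers Col1a1, Col1a2 and Thy1. Pou5f1 and Nanog, which mark pluripotent cells, had no TSS interval. The medians were 904 normalised counts per kb for motor neuron progenitor markers and 584 for Nkx2-2 and Foxa2. They were 376 for motor neuron markers and 248 for fibroblast markers.

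Of the 1131 autosomal intervals of 2500 bp or more, 695 (61.5%) covered TSSs of 1 protein-coding gene, 54 covered those of several, and 382 covered none. Members were 4.84% of the 14353 single-gene TSS intervals, and they belonged to 682 genes, which is 5.65% of the genes with such an interval. Pax6 had 3 broad intervals, and 11 genes had 2 each (Adam11, Agap3, Foxp1, Gse1, Meis2, Nol4l, Notch1, Npas3, Schip1, Sfi1 and Zmynd8). The median length was 2903 bp, with quartiles of 2658 and 3304 bp, against a median of 1142.5 bp in the shorter class. There were 305 members of 3000 bp or more, 50 of 4000 bp or more and 6 of 5000 bp or more. No member had a count of 0 in a library, and the lowest mean normalised count was 101.

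The longest intervals covered genes of varied function. Counts were scaled with DESeq2 size factors and divided by the interval length in kb, which gives the density used here. The longest interval, 6610 bp at chr11:3131289-3137898, lay within Sfi1, which encodes a centrin-binding protein of the spindle pole, and held 3993 and 4215 counts in the 2 libraries (621 ± 23.4 normalised counts per kb, SD, n = 2). The other Sfi1 interval, of 5329 bp at chr11:3142382-3147710, held 3659 and 3836 counts. Neither was at the start of the gene as annotated, and with CpG observed over expected ratios of 0.16 each they stood far below the member median of 0.673. Long stretches of both matched other chromosomes: the longest match of the 5329 bp interval was 4586 bp at 92.6% identity, so reads here could belong to another copy. Among all 695 members, 14 had a match of 500 bp or more at 90% identity or higher elsewhere on the chromosomes.

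Zmiz1, a transcriptional co-regulator, had the longest interval at a gene start, 6193 bp at chr14:25457150-25463342, with 5284 and 4959 counts. Tle3, a Groucho-family co-repressor, followed with 5935 bp and 4483 and 4176 counts. Dusp4, which encodes a MAP kinase phosphatase, was the densest of the 10 longest, with 5265 bp and 5858 and 5555 counts (1084 ± 41.3 normalised counts per kb, SD, n = 2). The rest were less dense than Dusp4. Pcdh7, a protocadherin, had 5006 bp and 2409 and 2279 counts, and Igfbp5, a binding protein of insulin-like growth factors, had 4960 bp and 2215 and 2082 counts. Tgif1, a homeodomain repressor, had 4846 bp, the AP-1 subunit gene Junb had 4830 bp, and Zfp423, a zinc finger transcription factor, had 4774 bp. The intervals extended differently around the TSS. That of Tgif1 reached 86 bp upstream and 4759 bp downstream of the most upstream TSS it covered, whereas that of Tle3 reached 3606 bp upstream and 2328 bp downstream.

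**Figure D1:**
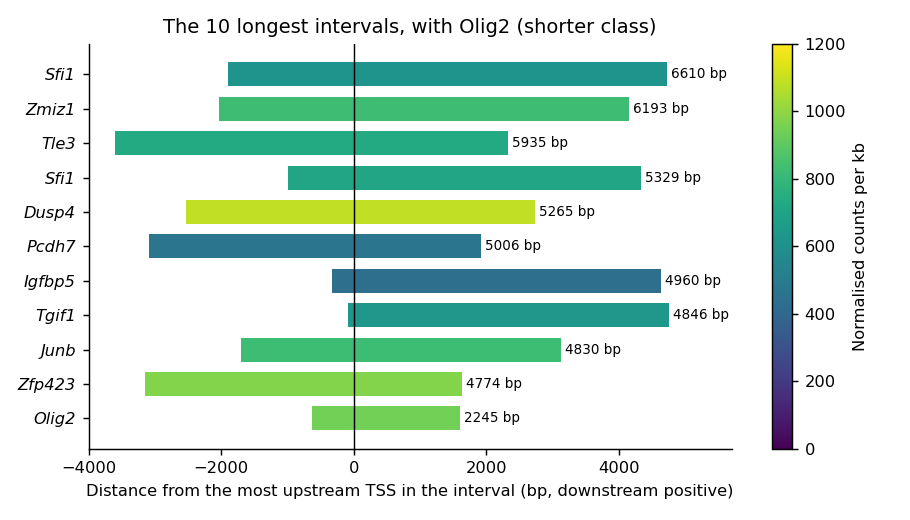
Extent of the 10 longest broad intervals and of the shorter Olig2 interval around the most upstream TSS covered, in bp, with downstream positive. Bar colour gives the mean normalised counts per kb of the 2 libraries, from 433 at Igfbp5 to 1084 at Dusp4, and the label gives the length.

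The length limit did not separate distinct kinds of interval. Just inside it were Impact and Eef2 at 2500 bp each, with 1553 and 569 normalised counts per kb. Just outside were Npbwr1 at 2499 bp with 260 normalised counts per kb and Samd1 at 2498 bp with 971. The Olig2 interval at chr16:91224821-91227065 was 2245 bp long and held 2160 and 2088 counts (946 ± 23.2 normalised counts per kb, SD, n = 2).

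Broad intervals held more counts in all, but fewer per kb. The median normalised count was 1878 in replicate 1 and 1802 in replicate 2, against 890 and 864 in the shorter class, a ratio of 2.10 ± 0.0157 (SD, n = 2). Per kb the medians were 612 and 600 in broad intervals and 736 and 715 in shorter ones, a ratio of 0.836 ± 0.00523 (SD, n = 2). The order thus depended on whether length was divided out. Within developmental transcription factor genes the order per kb was the other way, with medians of 602 in broad and 530 in shorter intervals. Against shorter intervals of 1000 bp or more alone, a comparison added after the values were seen, the ratio per kb was 0.737. Density was not a steady function of length: its median was 119 normalised counts per kb below 500 bp, 888 from 1000 to below 1500 bp, 632 from 2000 to below 2500 bp, 623 from 2500 to below 3000 bp, 586 from 3000 to below 4000 bp and 605 at 4000 bp or more. Across the 695 members, Spearman's rho between length and density was −0.08, and over all single-gene TSS intervals it was 0.18. The lengths were set with 3 further libraries not used here, whose part in these values was not tested.

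**Figure D2:**
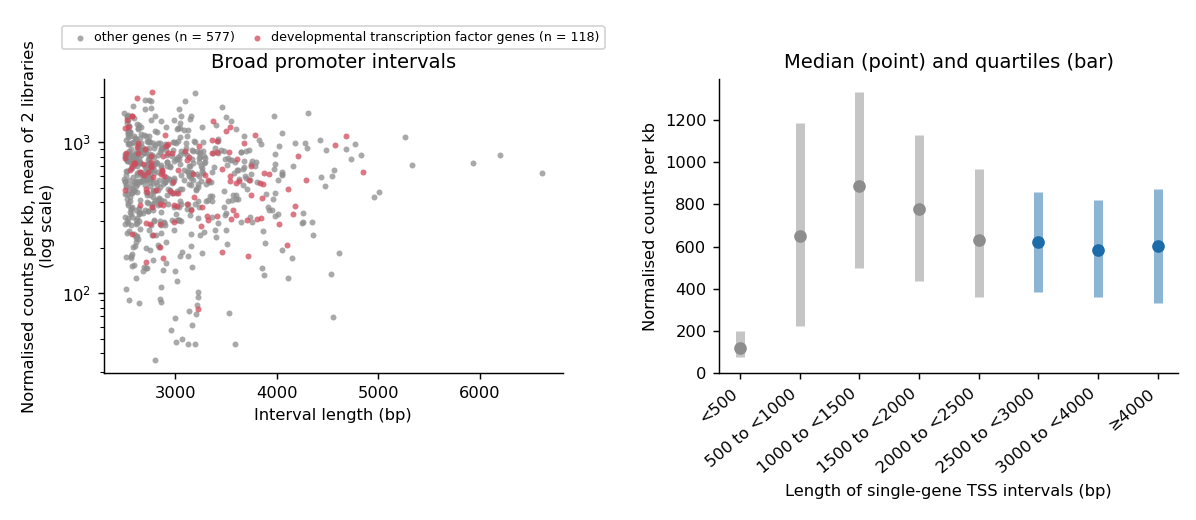
Left, length in bp of each of the 695 broad intervals against its mean normalised counts per kb (log scale), with developmental transcription factor genes in red. Right, median (mean of the medians of the 2 libraries) and quartiles of normalised counts per kb for single-gene TSS intervals by length in bp, with broad intervals in blue. The median was highest from 1000 to below 1500 bp (888) and lay between 586 and 623 in the 3 broad bins.

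Members varied widely in density, from 36.0 to 2135 normalised counts per kb, with quartiles of 372 and 849. At the top was Irx5, an Iroquois homeobox gene, with 5918 and 5903 counts over 2768 bp. Mnt, which encodes a MAX-binding repressor, had 6820 and 6791 counts and 2131 normalised counts per kb. These 2 densities lay within 1 SD of each other, 5.07 for Irx5 and 7.65 for Mnt. Klf10, a zinc finger factor, had 1954 normalised counts per kb, Ing2, which encodes a reader of histone methylation, 1905, and Bcl2l11, which encodes the cell death protein BIM, 1901.

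At the lower end, Stpg4 held 97 and 105 counts (36.0 ± 2.00 normalised counts per kb, SD, n = 2). It was followed by Itgb7, an integrin subunit of lymphocytes, with 46.1, Dlg4, which encodes the synaptic scaffold PSD-95, with 46.2, the actin-binding protein gene Avil with 46.3 and the zinc transporter gene Slc39a14 with 47.4. Apart from Stpg4, none of the 5 covered the annotated start of its gene. Their CpG observed over expected ratios were from 0.188 to 0.341.

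This held more widely. In the 174 members with the lowest density, 61.5% covered the start of the gene and 43.1% were CpG-rich, a term used here for a GC content of 50% or more with an observed over expected CpG ratio of 0.6 or more. In the next 3 groups by density, of 174, 173 and 174 members, 80.5%, 81.5% and 87.9% covered the gene start, and 67.8%, 80.3% and 79.3% were CpG-rich. Spearman's rho between the CpG ratio and density over the 695 members was 0.39, and all points come from the same 2 libraries. The 541 members at a gene start had a median of 639 normalised counts per kb, and 73.4% were CpG-rich. The 154 at an internal TSS had a median of 460, and 47.4% were CpG-rich.

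Among the 12 genes with several broad intervals, the highest density was from 1.06 times the lowest, at Agap3, to 29.9 times, at Notch1, and it was over 3 times the lowest only at Pax6, Foxp1 and Notch1. The 3 intervals of Pax6, a homeobox gene of neural progenitors, were at chr2:105666546-105670008 with 637 and 655 counts, chr2:105673832-105676733 with 3278 and 3230, and chr2:105680265-105682972 with 1286 and 1380. Their densities were 187, 1121 and 492 normalised counts per kb, so the interval at the gene start was the lowest. Notch1 encodes a receptor that keeps progenitors undifferentiated. Its interval of 3970 bp had 5955 and 5921 counts, or 1496 normalised counts per kb, although it lay at an internal TSS. That of 3069 bp had only 153 and 154 counts. Foxp1, a forkhead gene of motor neuron subtypes, had 3574 and 3345 counts at the gene start and 267 and 241 at the internal TSS.

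Genes of developmental transcription factors were often covered by a broad interval. Of 379 such genes with a single-gene TSS interval, 114 had a broad one (30.1%, 95% Wilson interval 25.7 to 34.9), beside 5.65% of all genes. These 114 genes held 118 of the 695 members. The median length over all intervals of the list was 1885 bp against 1173 bp for all genes, and the median density was 549 against 715 normalised counts per kb. The share of these genes was 2.34% below 500 bp and 1.49% between 500 and 1000 bp. From 1000 bp it rose, with 1.73% between 1000 and 1500 bp, 10.8% between 2000 and 2500 bp and 14.6% between 2500 and 3000 bp. It was 20.0% both between 3000 and 4000 bp and at 4000 bp or more. Among members it was between 16.1% and 18.4% in each of the 4 groups by density. The lists were put together with earlier results of these data known, so the shares are a description.

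Among homeobox genes outside the Hox clusters and the Pax genes, 42 of 119 had a broad interval (35.3%). Pou3f2, a POU factor of the nervous system, had 4569 bp and 4429 and 4331 counts. Tshz3, a teashirt-family gene, had 4204 bp and 3461 and 3308 counts, and Lmx1b, which specifies dorsal interneurons, had 4154 bp and 1434 and 1321. Lmx1b was thus the least dense of these at 332 normalised counts per kb, against 959 for Pou3f2. Of the Hox genes, which set position along the body axis, 9 of 35 had a broad interval. Hoxd3 had 4283 bp and 2443 and 2388 counts, Hoxb2 3838 bp and 2147 and 1954, Hoxa5 3750 bp and 1807 and 1517, and Hoxd11, which is used far posteriorly, 3713 bp and 706 and 610. Hoxd11 stood lowest at 177 normalised counts per kb.

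Pax genes had a broad interval in 4 of 8 cases, namely Pax6, Pax7, Pax2 and Pax9. Pax7, which marks dorsal progenitors, had 847 and 786 counts, and Pax2, an interneuron gene in the spinal cord, had 2135 and 1933. Of the Sox genes 7 of 18 were covered. Sox2, which maintains neural progenitors, had 3413 bp and 3002 and 2880 counts, Sox6 3926 bp and 2525 and 2282, Sox12 3375 bp and 4748 and 4498, and Sox21 2927 bp and 2583 and 2394. Sox12 was the densest of these 4, at 1370 normalised counts per kb. Fox genes had 11 of 31 (Foxo3, with 4684 bp and 5173 and 5097 counts, Foxp1, Foxe1 with 700 and 659 counts, and Foxl2 with 1904 and 1881 among them).

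Developmental zinc finger genes had a broad interval in 22 of 65 cases (33.8%). Bcl11b had 4105 bp and 1985 and 2036 counts, Fezf2, a forebrain gene, 4099 bp and 910 and 791, and Sp5, a Wnt target, 3807 bp and 1245 and 1117. The endoderm gene Gata6 had 3853 bp and 1683 and 1596 counts. Of the basic helix-loop-helix genes, 9 of 42 were covered, including the proneural gene Neurog2, whose 3529 bp held 3023 and 3067 counts, Sim2 with 1230 and 1094, Bhlhe40 with 2310 and 2289 and Id1, an inhibitor of this family, with 1944 and 1937. NFI, Ebf and AP-2 genes had 3 of 12 (Ebf2, Nfib and Tfap2c), T-box genes 2 of 10 (Tbx2 and Eomes), and nuclear receptors 5 of 39, the lowest share among these families (12.8%, 95% Wilson interval 5.60 to 26.7). Nr3c2, the mineralocorticoid receptor gene, led the last group with 3781 bp and 4227 and 4237 counts.

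The cell type markers were split by the limit. Pax6 and Sox2 were members while Olig2 and Nkx6-1 were not, although Nkx6-1 had 1452 normalised counts per kb over 1659 bp. Nkx2-2, which marks the progenitors ventral to the OLIG2+ domain, had a broad interval of 3093 bp at an internal TSS with 2779 and 2661 counts. Foxa2, the other marker chosen for those progenitors, had a shorter single-gene TSS interval and no broad interval. None of the 3 motor neuron markers Mnx1, Isl1 and Lhx3 had a broad interval.

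Signalling and guidance genes had a broad interval in 51 of 227 cases (22.5%, 95% Wilson interval 17.5 to 28.3), beside the 5.65% of all genes. In the Hedgehog pathway, which SAG turns on, the count was 4 of 17. The ligand gene Ihh had 4262 bp and 1267 and 1263 counts, and the co-receptor gene Gas1 3046 bp and 3819 and 3758. Gli1, a transcription factor and target of the pathway, had 3673 bp and 3627 and 3658 counts, and Scube3, which encodes a secreted protein, 2749 bp and 1610 and 1554. Gas1 was the densest at 1244 normalised counts per kb and Ihh the least dense at 297. The receptor gene Ptch1, Smo and the effectors Gli2 and Gli3 had shorter intervals, of 1548, 1331, 2281 and 2059 bp at the gene start.

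In the Notch pathway 4 of 23 genes were covered. Besides Notch1 these were the ligand gene Jag1 with 3521 bp and 2768 and 2781 counts, Numbl with 2620 bp and 1557 and 1610, and Rbpj, which encodes the DNA-binding partner of Notch, with 2592 bp and 3756 and 3778. The targets Hes1 and Hes5 had shorter intervals at 1438 and 1782 normalised counts per kb. FGF pathway genes had the highest share of the signalling lists, 9 of 29 (31.0%). The feedback inhibitors Spry2 and Spry4 had 3304 and 3258 counts and 2231 and 2225 counts, the receptor gene Fgfr3 3008 and 2951, and the ligand gene Fgf10 1135 and 1126.

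Wnt pathway genes had 11 of 53 broad. The receptor genes Fzd8 and Fzd2 had 3609 and 3610 counts and 2907 and 2801 counts, whereas the ligand gene Wnt1 had 792 and 698 and the agonist gene Rspo3 1086 and 1072. Over the 11 broad Wnt genes the density ranged from 212 normalised counts per kb at Wnt1 to 1174 at Fzd7. For BMP and TGF-beta genes the count was 8 of 42, with the ligand genes Bmp4 (1241 and 1128 counts), Inhbb (1315 and 1293) and Bmp7 (2182 and 2108) and the inhibitor gene Fst (1368 and 1367). Axon guidance genes had 15 of 63, led by Efna5, an ephrin gene, with 4732 bp and 3698 and 3604 counts. Its receptor gene Epha4 had 4469 bp and 2354 and 2192 counts, Sema6a 4273 bp and 4213 and 4169, and Slit2, which encodes a midline repellent, 3805 bp and 2100 and 2012.

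Immediate early genes, which respond to stimuli within minutes, had, with the Pax genes, the highest share of any list apart from the cell type markers, 10 of 20 (50.0%, 95% Wilson interval 29.9 to 70.1). Junb held 4056 and 3871 counts, Myc 3775 and 3802 over 4024 bp, Egr2 2093 and 2079 over 3727 bp, and Jun 4456 and 4375 over 3598 bp. Of these, Egr2, Egr3, Egr1 and Klf4 were also in the zinc finger list. Chromatin regulators had 11 of 63 (17.5%). Arid2, a subunit of the PBAF remodelling complex, had 4677 bp and 4242 and 4216 counts, and Kdm2b, whose protein binds CpG islands, had 4249 bp and 1268 and 1211. Smarca2, an ATPase of the BAF complex, had 2475 and 2428 counts, and Kmt2a, a histone methyltransferase gene, 2626 and 2308.

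Cell cycle genes had 5 of 38 broad (13.2%), among them the G1 cyclin genes Ccnd2 with 4040 and 4034 counts and Ccnd3 with 2424 and 2444, the kinase gene Cdk6 with 2726 and 2630, and E2f3, which encodes a transcription factor of the S phase programme, with 4940 and 4870. Cation channel genes had 1 of 53 (1.89%, 95% Wilson interval 0.334 to 9.94, which holds the 5.65% of all genes). This was the potassium channel gene Kcnh3, with 955 and 886 counts over 2568 bp.

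No housekeeping gene had a broad single-gene interval, in 0 of 150 genes, with an upper 95% Wilson limit of 2.50%. A further 51 had only intervals shared with other genes, and with these counted 2 of 201 (0.995%) lay in an interval of 2500 bp or more. The counts were 0 of 59 for ribosomal proteins, 0 of 46 for oxidative phosphorylation, 0 of 28 for the proteasome and 0 of 17 for tRNA synthetases, and the upper limits of these single lists, from 6.11% to 18.4%, lie above the share of all genes. Their intervals were compact and dense, with a median length of 1062 bp and a median of 915 normalised counts per kb. The longest single-gene one, of Rps15a, was 2313 bp and held 956 and 883 counts. Outside these lists, Gapdh, a glycolytic gene often used as a reference and noted after its value was seen, had a broad interval of 2765 bp with 5237 and 5167 counts, and the translation factor gene Eef2 was at the limit. In all, 192 members (27.6%) belonged to a gene of any list and 503 to none, whereas 6.93% of shorter intervals belonged to a listed gene.

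**Figure D3:**
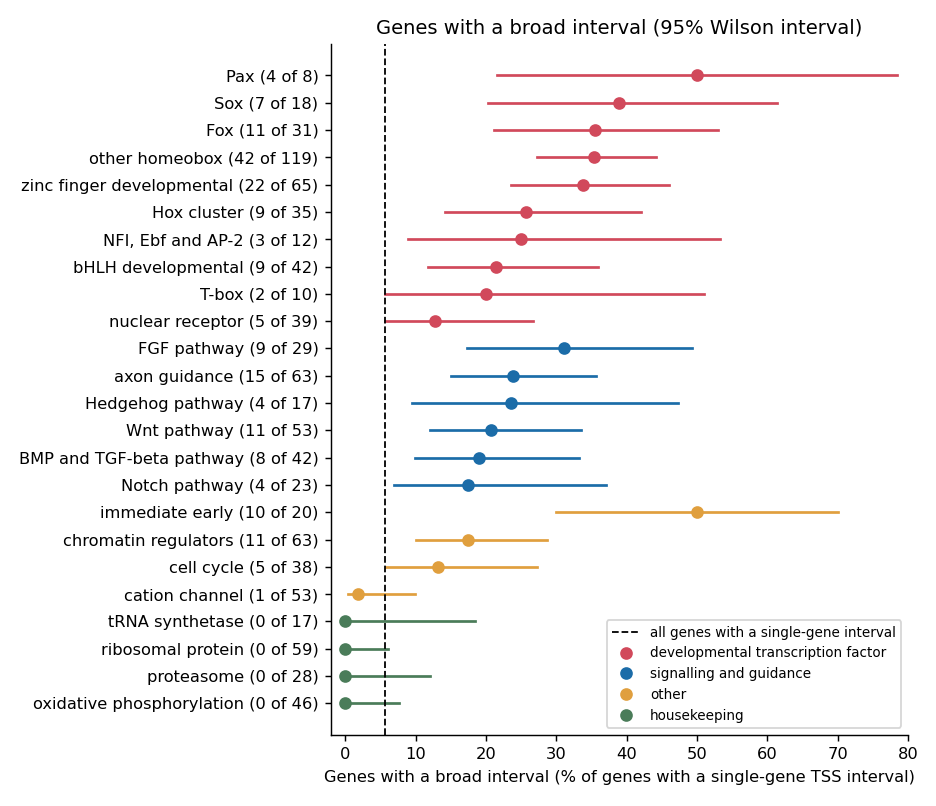
Percent of genes with a broad interval among the genes of each list with a single-gene TSS interval, with 95% Wilson intervals, coloured by class. The dashed line is the share of all such genes, 5.65%. The Pax and immediate early lists are at 50.0%, and the 4 housekeeping lists are at 0.

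Members reached further from the TSS on both sides. The median was 877 bp upstream and 2044 bp downstream of the most upstream TSS covered, against 381 and 691 bp for shorter intervals, and the interval is longer in members by the rule. The lean towards the gene body was not larger in members: 514 of 695 (74.0%, 95% Wilson interval 70.6 to 77.1) had more bases downstream than upstream, beside 74.7% of shorter intervals. A start of the gene lay in 77.8% of members and 72.4% of shorter intervals, but in 78.4% of the shorter ones from 2000 to below 2500 bp, so members did not stand apart from their neighbours in length. Likewise, several TSSs of the gene lay in 67.1% and 66.1%. A TSS of a gene that is not protein-coding lay in 26.9% of members against 11.9% of shorter intervals and 18.6% of those from 2000 to below 2500 bp. Introns made up a median of 45.2% of a member and exons 30.3%, against 38.8% and 33.5%. The median distance to the nearest other interval was 4590 bp for members and 5904.5 bp for shorter intervals.

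In the members of developmental transcription factor genes, a median of 1235.5 bp lay upstream of the TSS. More bases lay downstream than upstream in 65.3% of them, against 75.7% of the other members, with 95% Wilson intervals that overlap (56.3 to 73.2 and 72.1 to 79.1). Distances were measured from the most upstream TSS covered. Several TSSs lay in 50.0% of these members and 70.5% of the others, and the part of this in the difference was not tested. Exons covered a median of 39.0% of the length of the developmental transcription factor members. This was much as in the shorter intervals of all genes of that class (40.4%). The median length of the gene was 9.37 kb, against 34.8 kb over all members. CpG-rich intervals were 81.4% of these members and 64.8% of the others (95% Wilson intervals 73.4 to 87.4 and 60.8 to 68.6).

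CpG content next to the TSS did not set members apart from the longer intervals below the limit. From 500 bp before to 500 bp after the TSS, a window that does not depend on the interval length, the median was 6.69 CpGs per 100 bp in members and 5.39 in the whole shorter class, but 7.19 in shorter intervals from 2000 to below 2500 bp and 4.20 from 500 to below 1000 bp. The observed over expected ratio was 0.724 in members, 0.662 in the shorter class and 0.744 from 2000 to below 2500 bp. Intervals of housekeeping genes had medians of 5.89 CpGs per 100 bp and a ratio of 0.776 in this window. Over the whole interval 470 members were CpG-rich (67.6%, 95% Wilson interval 64.1 to 71.0), beside 58.0% of shorter intervals. By length, the share was 47.8% from 500 to below 1000 bp, 68.8% from 1000 to below 1500 bp and 64.2% from 2000 to below 2500 bp, so the difference from the whole shorter class lay in its intervals below 1000 bp.

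Further from the TSS, members held more CpGs than either group. In the 100 bp before the TSS the mean was 8.04 CpGs per 100 bp in members, 7.29 in shorter intervals and 8.83 in those from 2000 to below 2500 bp. At 1100 to 1200 bp downstream it was 5.51 in members, 1.90 in shorter intervals and 4.24 in those from 2000 to below 2500 bp. At 900 to 1000 bp upstream the means were 2.77, 1.31 and 2.12. Members of developmental transcription factor genes had 6.61 and 3.72 at these 2 distances, and the other members 5.29 and 2.57. The upstream window of Foxo3 printed above, with 19 CpGs in 150 bp, lay far over these means, and those of Pou3f2 and Tbx2 lay near or below them.

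**Figure D4:**
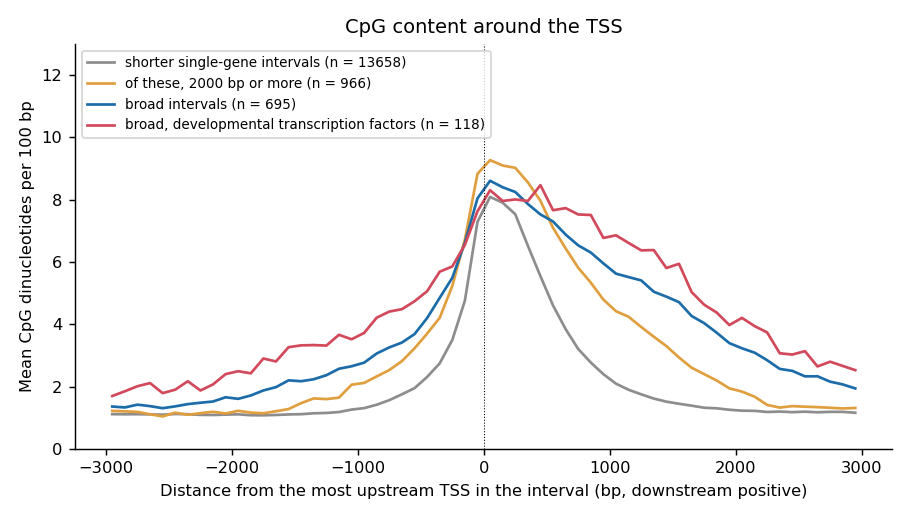
Mean CpG dinucleotides per 100 bp in bins of 100 bp, by distance in bp from the most upstream TSS in the interval, for 13658 shorter intervals, the 966 of these from 2000 bp, 695 broad intervals and the 118 broad intervals of developmental transcription factor genes. The curves lie close together at the TSS, and at 1100 to 1200 bp downstream the broad mean is 5.51 against 4.24 in the shorter intervals from 2000 bp and 1.90 in the whole shorter class.

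Promoter motifs were counted by exact letters on both strands, from 250 bp before to 50 bp after the TSS. The GC box GGGCGG, bound by SP and KLF factors, was in 63.9% of broad promoters and 56.7% of shorter ones, and in 57.0% of all. CCGGAAG, a core bound by ETS factors, was in 5.32% of broad promoters (95% Wilson interval 3.89 to 7.25) and 12.3% of shorter ones, and in 11.9% of all. CCAAT was in 32.4% and 36.2% (36.0% of all), and the SOX core ACAAAG in 12.8% and 15.8% (15.7% of all). The TATA box TATAAA was in 7.19% and 7.18% (7.18% of all), the E-box CAGCTG in 15.5% and 17.0% (17.0% of all), the homeodomain core TAATTA in 2.45% and 2.93% (2.91% of all), and the palindromic NRF1 core in 0.719% and 1.44% (1.40% of all). The shorter intervals from 2000 to below 2500 bp were close to members, with 65.7% for the GC box, 5.90% for CCGGAAG, 32.4% for CCAAT and 12.9% for ACAAAG. None of these motifs contains another, and a match describes letters, not binding.

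The share of single-gene TSS intervals that were broad ranged from 2.65% on chromosome 16 to 6.85% on chromosome 14. The median density of broad intervals was below that of shorter ones on each of the 19 autosomes, with ratios from 0.465 on chromosome 19 to 0.994 on chromosome 18. Chromosome 8 had the highest median in both classes, 850 normalised counts per kb in its 39 broad intervals and 983 in its shorter ones. On the other autosomes the broad median was between 381 and 719. Dusp4, Junb, Zfp423, Irx5 and Ing2 are on chromosome 8, and the part of the chromosome in their densities was not tested. Without chromosome 8, a comparison added after the values were seen, the ratio of broad to shorter density was 0.828.

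The 2 libraries were compared over the broad intervals. An exact two-sided binomial test of the counts, adjusted by the Benjamini-Hochberg method over all 119502 intervals at a limit of 0.01, compares the libraries and not conditions, and treats reads as independent, so that it knows counting error alone. It called 0% of all intervals and 0 members. At an unadjusted p under 0.05 it passed 156 members (22.4%), beside 8.39% of all intervals and 12.0% of shorter ones, whose median count was lower. The SD of the log2 ratio of replicate 2 to replicate 1 was 0.07 over members and 0.17 over the shorter class. The classes were not matched for count: all 695 members but 11991 of 13658 shorter intervals had a mean normalised count over 100. The part of this in the SDs was not tested. Among intervals whose mean normalised count exceeded 100, 0% differed 2-fold. Members were more often lower in replicate 2: 163 of 695 (23.5%) were higher there, with a median log2 ratio of −0.05, and so were 35.8% of shorter intervals.

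The largest log2 ratios were small. Camk2n1, which encodes an inhibitor of CaM kinase II, held 1671 counts in replicate 1 and 1386 in replicate 2, a log2 ratio of −0.27 (adjusted p = 0.0136, exact binomial test). Slc39a14 had 129 and 156 counts, a log2 ratio of 0.27, and Ovgp1, an oviduct glycoprotein gene, had 177 and 213, a log2 ratio of 0.26, and both rest on low counts. Avil, also with low counts of 151 and 181, had a log2 ratio of 0.26. That of Hoxa5 was smaller in size, at −0.25 (adjusted p = 0.0155, exact binomial test). With TMM factors, or with only the intervals whose mean exceeded 100, Camk2n1 and Hoxa5 passed the limit, each with more counts in replicate 1. Over all intervals, 6 of 119502 passed with TMM factors, and 11 of the 46369 whose mean exceeded 100.

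**Figure D5:**
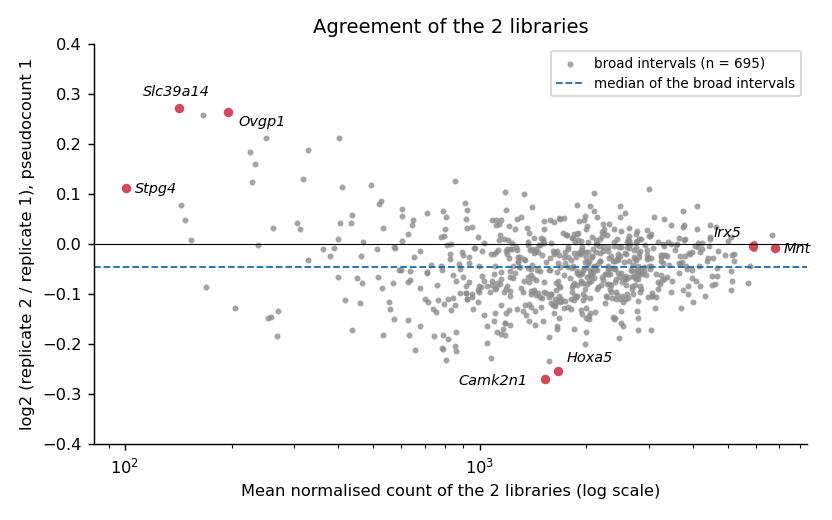
Log2 ratio of replicate 2 to replicate 1 (pseudocount 1) against the mean normalised count of the 2 libraries (log scale) for the 695 broad intervals, with the median of −0.05 dashed and named intervals in red. All ratios lie between −0.27 and 0.27.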

How the data were processed

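ATAC-seq counts of live mKate2-positive cells, 1 group with 2 replicates, were analysed; the labels do not say that they were separate cultures, so differences between them may be technical. The p-values set 1 library against the other with counting error alone and estimate no spread between samples. Per the file headers, the authors made the deposited counts with featureCounts 2.0.1 (reads assigned to all overlapping intervals, minimum overlap fraction 0.2, read pairs) over consensus intervals on mm10. The interval Length in the deposited table came from peaks called in 5 libraries with nf-core/atacseq; the 3 count columns of other libraries were not used.

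TSSs of all transcripts of protein-coding genes came from GENCODE, and sequence from RefSeq GRCm38; every interval ended within its chromosome. Size factors were from DESeq2 1.42.0 (R 4.3.3) over all intervals, with TMM from edgeR 4.0.16 as an alternative. Counts were tested with an exact binomial test (scipy 1.17.1), tried on simulated data. The log2 ratio had a pseudocount of 1. BLAST+ 2.17.0 searched the members against the chromosomes, with soft-masked bases left out of the seeds. Wilson intervals were at 95% and treat genes as independent draws, which they are not. Depths were 31876165 and 31672240 counts.

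The members and gene lists were chosen with earlier results of these data known. Genes were named by a rule: the 10 longest, those next to the length limit, the 5 densest and 5 least dense, the 3 with the largest log2 ratios, up to 4 members per list by length, and Olig2. Shorter intervals of listed pathway genes, Gapdh and the ratios of Avil and Hoxa5 were named after their values were seen.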

Additional observations from a re-analysis of the deposited data

How the results depend on the processing

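Of 34 alternatives for the main values, 21 left the value within the spread or within 1.5 times the count. The densities of the 10 longest intervals and of Olig2, the only single intervals recomputed, did so in 44 of 44. These tallies do not measure robustness, because several outcomes could hardly differ. Leaving out 1 of 2 replicates keeps a density within its SD, and the size factors differed little between settings. A size factor cancels in the density ratio, and no member had a mean normalised count of 100 or less. The number of broad intervals was 1661 at a limit of 2000 bp and 305 at 3000 bp, and the share of developmental transcription factor genes with one was then 53.3% and 15.8%. The density ratio of 0.836 became 2.10 when counts were not divided by length, which reversed the order of the classes. It was 0.733 for intervals with a mean normalised count over 100, 0.823 at a limit of 3000 bp, and, chosen after seeing the data, 0.828 without chromosome 8 and 0.737 against shorter intervals of 1000 bp or more; leaving out either replicate gave 0.832 to 0.839. The CpG-rich share was 72.4% in the window of 500 bp on each side of the TSS and 26.3% with a CpG ratio limit of 0.75. With TMM factors 2 members differed between libraries, among 6 intervals in all. With a mean normalised count over 100, where fewer intervals were tested, 2 members did, among 11 intervals in all. The main count was 0. Causes of the other changes were not tested. No paired analysis was possible because all samples formed 1 group. With 2 replicates, an SD rests on 1 difference, and intervals on shares cover counting error only.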
